A study of Mus musculus with 6 samples.

Results

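The genes described here are the 100 protein_coding genes of the mouse mm9 annotation whose name starts with Krt, out of 22367 protein_coding genes. The rule uses the gene name only. By name they comprised 28 type I keratins, 23 type II keratins and 46 keratin-associated protein genes (Krtap). The remaining 3, Krtcap2, Krtcap3 and Krtdap, are named for keratinocytes and encode no keratin. Krtcap2 encodes a subunit of the complex that attaches sugar chains to new proteins, and Krtdap a secreted protein of differentiating keratinocytes.

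H4K5ac, the acetylation of histone H4 at lysine 5, was profiled by ChIP-Seq in the hippocampus of C57/BL6 mice aged 6 months. One group was fear-conditioned (FC): mice received a foot shock in a chamber on consecutive days and were returned to it for a memory test before tissue was taken. The context-only group (CON) got no shock, so that both groups shared the exposure to the chamber. Each group gave 1 library from H4K5ac-ChIP, 1 from IgG-IP (the mock precipitation) and 1 from input DNA. With 1 library for each there is no replicate spread, and no test between conditions was made. Intervals below are 95% exact binomial intervals that cover counting error only.

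The 6 libraries held between 14549689 (FC IgG-IP) and 45673239 (FC input) aligned reads, and 11.5% to 17.8% of them were repeats, that is, reads starting where an earlier read on that strand did. Read density is given as RPKM, the reads that overlap a region per kilobase of its length and per 1000000 reads of the library. Enrichment is given as the log2 ratio of H4K5ac-ChIP to IgG-IP after scaling to library totals. The methods of the study name several hippocampal samples for each group, cross-linked one by one, and here each group and antibody is 1 library. The tissue was not sorted by cell type, so a low signal from few cells and a low signal per cell cannot be told apart. RNA was not measured in these libraries.

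Keratins are the intermediate filament proteins of epithelia. A filament is built from pairs of an acidic type I and a basic type II chain, and different pairs mark simple, basal, suprabasal and hair epithelia. Krtap proteins form the cysteine-rich or glycine- and tyrosine-rich matrix around the keratin filaments of hair. Both gene classes lie in dense clusters and are known for expression in epithelia and hair follicles rather than in neurons. Acetylation of histone H4 is commonly found at the promoters of transcribed genes.

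Members formed 3 clusters of at least 5 genes with no gap above 500 kb. The chromosome 11 cluster (chr11:99094075-100131185) held 49 members, with 22 Krtap genes between 2 stretches of type I keratins. The chromosome 15 cluster (chr15:101177875-101862457) held 24 members, namely the 23 type II keratins and Krt18, a type I keratin. The chromosome 16 cluster (chr16:88610954-89571428) held 19 Krtap genes. The 4 genes of the Krtap5 group and Krtdap lay on chromosome 7, and Krtap12-1, Krtcap2 and Krtcap3 lay on chromosomes 10, 3 and 5.

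The promoter sequences of 7 members show the range of the family. Krtcap2, Krt222 and Krt80 had promoters at least 2-fold above IgG-IP in both groups, Krt10 had the highest body ratio of the keratins, and Krt6b, Krtap6-3 and Krtap13 were among the lowest promoters of their classes in CON. In FC the promoters of Krt6b and Krtap13 had under 20 reads in H4K5ac-ChIP and IgG-IP together. Each sequence is the 250 bases upstream of the transcription start site (TSS), read from the mm9 genome on the strand of the gene and written 5′ to 3′. Capitals mark the TATA box letters TATAAA wherever they occur on either strand. They also mark the GC box, spelled GGGCGG or its reverse complement. The AP-1 site, TGANTCA, was searched and capitalised as well. Every CG is in capitals too. Krtcap2 is at chr3:89049638-89049887 (plus strand), Krt222 at chr11:99105400-99105649 (minus strand), Krt80 at chr15:101200557-101200806 (minus strand) and Krt10 at chr11:99250679-99250928 (minus strand). Krt6b is at chr15:101510721-101510970 (minus strand), Krtap6-3 at chr16:89084086-89084335 (plus strand) and Krtap13 at chr16:88751874-88752123 (minus strand).
Krtcap2: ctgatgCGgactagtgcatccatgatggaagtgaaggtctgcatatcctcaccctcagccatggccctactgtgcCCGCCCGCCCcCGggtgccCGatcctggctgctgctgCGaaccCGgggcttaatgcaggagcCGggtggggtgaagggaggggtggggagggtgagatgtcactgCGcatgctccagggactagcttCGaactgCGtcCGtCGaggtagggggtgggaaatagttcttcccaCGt
Krt222: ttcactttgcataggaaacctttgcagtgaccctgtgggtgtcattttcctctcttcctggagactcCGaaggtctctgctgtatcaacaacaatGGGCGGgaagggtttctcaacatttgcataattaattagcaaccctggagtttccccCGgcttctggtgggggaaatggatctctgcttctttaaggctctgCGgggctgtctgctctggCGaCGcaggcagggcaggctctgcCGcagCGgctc
Krt80: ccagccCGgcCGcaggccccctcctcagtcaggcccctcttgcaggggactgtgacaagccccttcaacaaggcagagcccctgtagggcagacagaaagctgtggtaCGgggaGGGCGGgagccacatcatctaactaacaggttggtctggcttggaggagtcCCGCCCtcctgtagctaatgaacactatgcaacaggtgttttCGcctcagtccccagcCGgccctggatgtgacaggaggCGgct
Krt10: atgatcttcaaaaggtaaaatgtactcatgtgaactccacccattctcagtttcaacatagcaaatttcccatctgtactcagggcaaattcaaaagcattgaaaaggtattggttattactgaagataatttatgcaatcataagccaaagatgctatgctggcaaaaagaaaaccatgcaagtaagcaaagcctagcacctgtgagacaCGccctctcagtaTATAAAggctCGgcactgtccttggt
Krt6b: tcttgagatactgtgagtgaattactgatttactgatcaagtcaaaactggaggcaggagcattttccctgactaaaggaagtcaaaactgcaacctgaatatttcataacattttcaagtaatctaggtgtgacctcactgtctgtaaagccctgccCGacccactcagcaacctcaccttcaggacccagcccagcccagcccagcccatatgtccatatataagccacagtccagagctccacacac
Krtap6-3: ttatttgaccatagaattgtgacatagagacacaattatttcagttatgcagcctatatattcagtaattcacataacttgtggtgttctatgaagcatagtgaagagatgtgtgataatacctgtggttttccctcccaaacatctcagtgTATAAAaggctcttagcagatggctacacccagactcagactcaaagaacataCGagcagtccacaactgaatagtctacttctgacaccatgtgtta
Krtap13: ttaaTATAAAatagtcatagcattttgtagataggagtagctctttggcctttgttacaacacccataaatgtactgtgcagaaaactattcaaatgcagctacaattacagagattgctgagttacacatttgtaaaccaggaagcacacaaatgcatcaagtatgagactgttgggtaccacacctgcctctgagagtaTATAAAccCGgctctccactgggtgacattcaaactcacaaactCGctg

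The promoter of Krtcap2 held 2 overlapping GC boxes, that of Krt80 held 2 and that of Krt222 held 1, whereas none of the 3 held TATAAA. Krt10 carried TATAAA starting 26 bases before its TSS. Krtap6-3 carried it 98 bases before the TSS and Krtap13 at both 246 and 49 bases. The Krt6b window held none of the 3 motifs.

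Across the family, TATAAA was present on either strand of the 250 bases in 61 of 100 members, against 12.3% of all protein_coding genes. The share was 21 of 22 for Krtap genes on chromosome 11, 13 of 19 for those on chromosome 16, 18 of 28 for type I keratins and 5 of 23 for type II keratins. On the strand of the gene alone, TATAAA started between 20 and 40 bases before the TSS in 43 of 100 members, against 2.38% of all genes. The olfactory and vomeronasal receptor genes are another large clustered family. They held TATAAA anywhere on either strand in 37.2% of windows, and at that distance on the strand of the gene in 1.04%. GGGCGG was found in 8 of 100 members against 39.6% of all genes, and in 0 of 46 Krtap promoters. At least 10 CG were present in 4 of 100 members against 46.9% of all genes. TGANTCA was found in 14 of 100 members against 6.00% of all genes. The olfactory and vomeronasal receptor genes held GGGCGG in 0.833%, at least 10 CG in 0.139% and TGANTCA in 12.3% of windows. A low share of GGGCGG and CG and a raised share of TGANTCA were therefore not particular to the members. These are matches of letters and no binding was measured at them.

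Over gene bodies, members carried less H4K5ac than most genes. Pooled over the 100 bodies, the FC libraries held 0.438 RPKM (H4K5ac-ChIP), 0.350 RPKM (IgG-IP) and 0.610 RPKM (input). The corresponding CON values were 0.412, 0.406 and 0.422 RPKM. H4K5ac-ChIP therefore lay above IgG-IP in FC, by a log2 ratio of 0.32 (0.25 to 0.40), and level with it in CON, at 0.02 (-0.04 to 0.09). Against input the FC ratio had the opposite sign, -0.48 (-0.52 to -0.43), while the CON ratio was -0.04 (-0.09 to 0.01).

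In each group 59 members had at least 20 reads in H4K5ac-ChIP and IgG-IP together, and 56 of them were the same in both groups. Their median log2 ratios to IgG-IP were 0.19 (FC) and -0.11 (CON). The medians over all protein_coding genes that passed the same minimum were 0.70 and 0.61. For these medians and for the counts of genes, 0.5 read was added to each library. In FC, 9 of 59 members were at least 2-fold above IgG-IP, against 32.9% of genes. In CON, 5 of 59 were, against 24.6%. Against input, 3 of 77 bodies were at least 2-fold higher in FC (Krt10, Krtap16-7 and Krtap4-2, background 4.05%), and Krt10 was the single one of the 9 among them. In CON, 4 of 65 were (Krt10, Krtap11-1, Krtap2-4 and Krtcap2, background 14.4%). At least 2-fold below IgG-IP were 3 members in FC (background 8.35%) and 1 in CON (background 8.95%).

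By class, the type I bodies had pooled log2 ratios of 0.32 (0.22 to 0.43) in FC and 0.01 (-0.08 to 0.11) in CON. The type II bodies had 0.38 (0.28 to 0.48) and 0.10 (0.01 to 0.19). The Krtap bodies pooled were below IgG-IP in both groups, at -0.42 (-0.67 to -0.16) and -0.77 (-0.998 to -0.53), but in FC their 2 main clusters differed. The 22 on chromosome 11 had 0.26 (-0.19 to 0.72) in FC and -0.75 (-1.15 to -0.35) in CON, from 57 and 95 IgG-IP reads, while the 19 on chromosome 16 had -0.88 (-1.22 to -0.53) and -0.77 (-1.08 to -0.46). The 3 genes named for keratinocytes were above IgG-IP, at 1.58 (1.04 to 2.17) and 0.87 (0.46 to 1.30). Krtap genes are short, and in each group 41 of 46 had under 20 reads in H4K5ac-ChIP and IgG-IP together, so few of their bodies could be described singly.

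**Figure D1:**
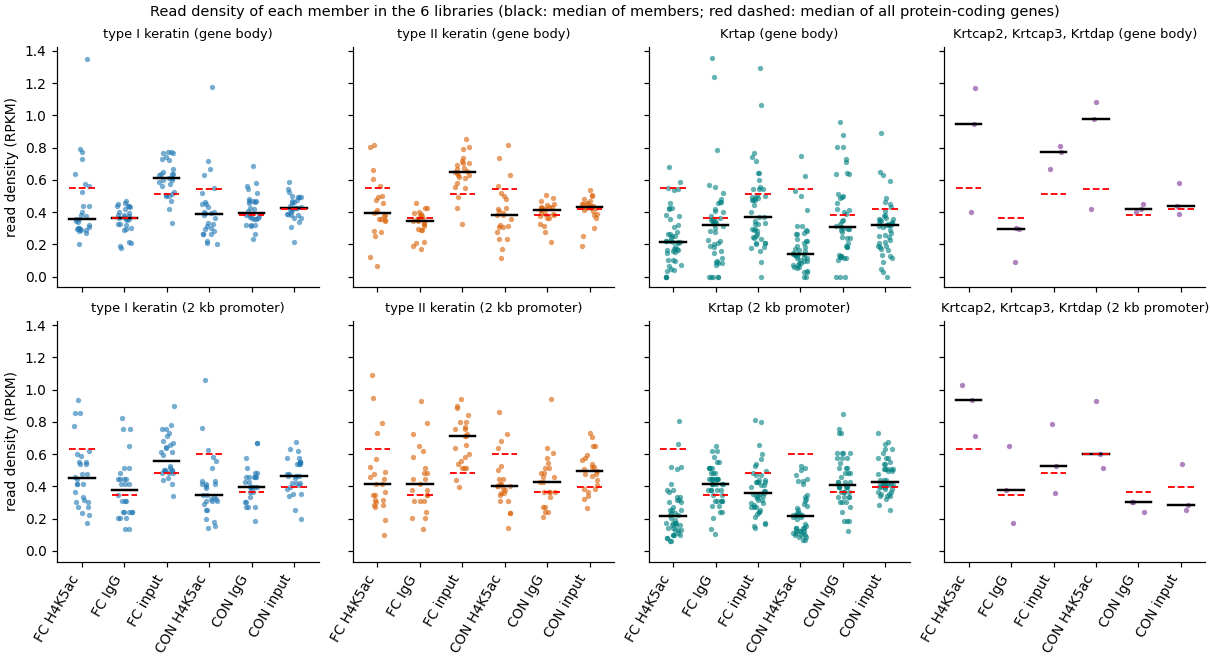
Read density in RPKM (vertical axes) of each member in each of the 6 libraries, for gene bodies and 2 kb promoters and by class; each point is a gene, black bars are the medians of the members and red dashed lines those of all protein_coding genes. Krtap points in H4K5ac-ChIP lie mostly below the line of all genes, with body medians of 0.217 RPKM in FC and 0.140 RPKM in CON against 0.549 and 0.541 RPKM.

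Among the suprabasal keratins, which replace the basal pair as epidermal cells differentiate, Krt10 (chr11:99246568-99250678) stood highest. Its body density was 1.35, 0.318 and 0.501 RPKM in FC H4K5ac-ChIP, IgG-IP and input, and 1.18, 0.354 and 0.397 RPKM in the CON libraries. Both H4K5ac-ChIP libraries were above all 4 control libraries. The log2 ratio to IgG-IP came to 2.08 (1.40 to 2.85) in FC and 1.73 (1.11 to 2.41) in CON, and the ratio to input was 1.43 (1.06 to 1.81) and 1.57 (1.13 to 2.02). Krt10 overlaps the annotated gene Gm11940, and reads there cannot be assigned to one of them.

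Krt1, the type II partner of Krt10, lies in the other cluster (chr15:101675859-101681217). Its body held 136, 28 and 154 reads in FC H4K5ac-ChIP, IgG-IP and input, and 157, 34 and 79 reads in CON. Krt1 was above IgG-IP by a log2 ratio of 1.16 (0.57 to 1.80) in FC and 1.08 (0.54 to 1.66) in CON. The neighbouring suprabasal gene Krt2 showed no such excess, with -0.04 (-0.58 to 0.53) and 0.09 (-0.36 to 0.56). Krt77, another type II keratin close to Krt1, had 1.33 (0.89 to 1.78) in FC and 0.77 (0.40 to 1.15) in CON.

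The basal pair Krt5 and Krt14, which forms the filaments of dividing keratinocytes, was near IgG-IP. Krt5 had log2 ratios of 0.21 (-0.48 to 0.94) in FC and -0.48 (-1.07 to 0.12) in CON. Krt14 had -0.47 (-1.18 to 0.27) and 0.60 (-0.15 to 1.43), so the 2 groups gave opposite signs with intervals that include 0. Krt15, also basal, had -0.33 (-1.13 to 0.50) and 0.08 (-0.60 to 0.81).

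Of the simple epithelial keratins, none reached 2-fold in its body in either group. Krt8 had 0.58 (0.04 to 1.15) in FC and 0.05 (-0.46 to 0.59) in CON, and its type I partner Krt18 had 0.07 (-0.76 to 0.96) and -0.48 (-1.27 to 0.34). Krt7 and Krt20 lay between -0.12 and 0.10 in both groups. Krt19 was at -0.09 (-0.63 to 0.48) in FC and -0.79 (-1.37 to -0.20) in CON.

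Among the keratins of wounded and stressed epithelium, Krt17 had 1.42 (0.62 to 2.31) in FC and 0.34 (-0.29 to 1.01) in CON. Its FC IgG-IP body held 15 reads and its CON IgG-IP body 29. Krt6a and Krt6b were the 2 lowest type II bodies in FC, at -1.41 (-2.86 to -0.00) and -0.82 (-1.97 to 0.36), and in CON they had -0.69 (-1.58 to 0.22) and -0.86 (-1.93 to 0.23). Of the 50-base words of Krt6a 35.9% occur more than once, on either strand, in the genomic spans that hold the members, intergenic DNA included. For Krt6b the share was 40.6%, so the counting of reads in both genes is uncertain.

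Krt12, the type I keratin of the cornea, had 1.39 (0.81 to 2.01) in FC and 0.97 (0.44 to 1.55) in CON, and it overlaps A830036E02Rik. Krt24 and Krt9 passed 2-fold over IgG-IP in FC and not in CON, and this difference was not tested. Krt24 had 1.44 (0.66 to 2.30) in FC and -0.06 (-0.61 to 0.52) in CON, from 94 and 86 reads in H4K5ac-ChIP and from 16 and 41 in IgG-IP. Krt9, a keratin of palm and sole skin, had 1.14 (0.59 to 1.73) and 0.20 (-0.24 to 0.65), with 158 and 155 H4K5ac-ChIP reads. For both genes the IgG-IP counts differed between groups more than the H4K5ac-ChIP counts did.

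The hair keratins Krt33a, Krt33b and Krt34 were the lowest type I bodies in FC. Krt33b held 53, 39 and 150 reads in FC H4K5ac-ChIP, IgG-IP and input and 67, 47 and 109 in CON, with ratios of -0.68 (-1.30 to -0.04) and -0.61 (-1.17 to -0.04). Krt34 had -0.82 (-1.69 to 0.06) and -0.54 (-1.36 to 0.31). Krt13, a mucosal keratin, was the single member 2-fold below IgG-IP in CON, at -1.39 (-2.03 to -0.75), and had -0.55 (-1.29 to 0.21) in FC.

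Of the 3 keratinocyte-named genes, Krtcap2 and Krtcap3 were above IgG-IP in both groups. Krtcap2 held 112, 16 and 139 reads in FC H4K5ac-ChIP, IgG-IP and input and 132, 28 and 58 in CON, giving 1.69 (0.93 to 2.54) and 1.11 (0.52 to 1.76). It overlaps Trim46. Krtcap3 had 3.69 (1.77 to 6.77) in FC, where IgG-IP held 2 reads, and 1.44 (0.46 to 2.57) in CON. Krtdap had 0.40 (-0.51 to 1.39) and 0.00 (-0.76 to 0.80).

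The longest Krtap gene, Krtap15, overlaps Krtap14 on chromosome 16. It held 48, 51 and 147 reads in FC H4K5ac-ChIP, IgG-IP and input and 94, 70 and 126 in CON, and was below IgG-IP in both groups, at -1.21 (-1.81 to -0.61) and -0.70 (-1.16 to -0.23). Krtap11-1 at the far end of the same cluster had 1.63 (0.11 to 3.61) in CON, from 27 and 4 reads, and -0.12 (-1.64 to 1.58) in FC. Of the 50-base words of Krtap4-13 and Krtap9-1 on chromosome 11, 81.4% and 64.7% occur more than once in the spans that hold the members. Krtap4-13 held at most 1 read in any library. Krtap29-1 on chromosome 11 had the highest mean input density of the members, 0.710 RPKM.

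At the 2 kb promoters the members were below IgG-IP in both groups, whereas the typical gene was above it. Pooled, the FC promoters had a log2 ratio of -0.12 (-0.22 to -0.02) and the CON promoters -0.34 (-0.44 to -0.25). The median over members with at least 20 reads was -0.10 for 87 promoters in FC and -0.31 for 91 in CON, against 1.02 and 0.83 over all genes. In FC, 13 members were at least 2-fold above IgG-IP against 50.5% of genes. In CON 4 were, against 42.7%. At least 2-fold below were 21 members in FC (background 8.17%) and 27 in CON (background 9.88%), and 11 of them were below in both groups. For promoters 2-fold above or below in both groups alike, no share over all genes was computed.

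The 4 promoters above 2-fold in both groups were Krt222, Krt80, Krtcap2 and Krtcap3, and each held GGGCGG in its 250 bases. The letters also occur in Krt14, Krt75, Krt81 and Krt83, whose FC promoter ratios were -0.90, -1.56, -0.76 and 0.62. The Krt80 promoter held 69, 4 and 51 reads in FC H4K5ac-ChIP, IgG-IP and input and 46, 9 and 37 in CON. This gave a ratio of 2.99 (1.57 to 4.91) in FC and 1.23 (0.18 to 2.45) in CON. The Krt222 promoter held 59, 6 and 62 reads in FC and 45, 6 and 18 in CON, with ratios of 2.18 (0.97 to 3.68) and 1.78 (0.55 to 3.30). Krt80 is a type II keratin found in many epithelia, and Krt222 is an atypical type I member at the edge of the chromosome 11 cluster. The Krtcap2 promoter had 2.44 (1.14 to 4.12) and 1.30 (0.20 to 2.60). Against input instead of IgG-IP, 2 promoters were at least 2-fold higher in FC (Krt10 and Krtcap2, background 23.5%) and 4 in CON (Krt222, Krt73, Krt9 and Krtcap2, background 34.2%). Krtcap2 alone passed in both groups by that measure, and Krt80 had 0.97 (0.42 to 1.52) and 0.30 (-0.36 to 0.96).

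Low promoters were mostly those of Krtap genes, with 16 of 35 at least 2-fold below IgG-IP in FC and 19 of 37 in CON. Over all genes the shares were 8.17% and 9.88%, but Krtap promoters are poor in GC, with a median of 38.0%. Among all genes with promoters in the 38% step of GC, the lower quartile was -1.58 in FC and -1.38 in CON, also more than 2-fold below. The 46 Krtap promoters pooled had a ratio of -0.72 (-0.88 to -0.55) in FC and -0.92 (-1.07 to -0.77) in CON. The 19 on chromosome 16 were lower, at -1.22 and -1.52, than the 22 on chromosome 11, at -0.51 and -0.60, and the intervals of the 2 sets did not overlap in either group. Less the value of genes of equal GC content the intervals did overlap, with -0.52 (-0.80 to -0.24) and -0.74 (-0.998 to -0.48) on chromosome 16 and -0.57 (-0.79 to -0.34) and -0.55 (-0.77 to -0.34) on chromosome 11. Type I promoters had 0.28 (0.10 to 0.48) and -0.06 (-0.24 to 0.12), and type II promoters 0.03 (-0.17 to 0.23) and -0.02 (-0.21 to 0.17). The Krtap6-3 promoter held 6, 14 and 29 reads in FC H4K5ac-ChIP, IgG-IP and input and 5, 20 and 26 in CON, and was the lowest in CON at -3.12 (-4.89 to -1.67). Among type II promoters, Krt71, of the inner root sheath of hair, was more than 2-fold below IgG-IP in both groups, at -1.55 (-2.46 to -0.66) and -1.27 (-2.06 to -0.49). Against input, the type I promoters pooled had -0.30 in FC and -0.24 in CON, and the type II promoters -0.57 and -0.20.

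The study took a promoter with over 50 H4K5ac-ChIP reads as above the average of its own counts. Here every read that overlaps the 5 kb before the TSS was counted, and the median over all genes was 88 reads in FC and 98 in CON, so the same threshold lies below the typical gene. Over 50 reads, 48 of 100 members passed in FC, against 72.6% of genes, and 60 in CON, against 75.3%. The 3 keratinocyte-named genes passed in both groups. The type II keratins passed with 18 of 23 in FC and 21 of 23 in CON, type I keratins with 19 and 20 of 28, and Krtap genes with 8 and 16 of 46. A fixed read count depends on the depth of the library, and the CON H4K5ac-ChIP library was the deeper one. Scaled to the smaller of the 2 libraries, the CON count was 53 and the FC count 48.

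**Figure D2:**
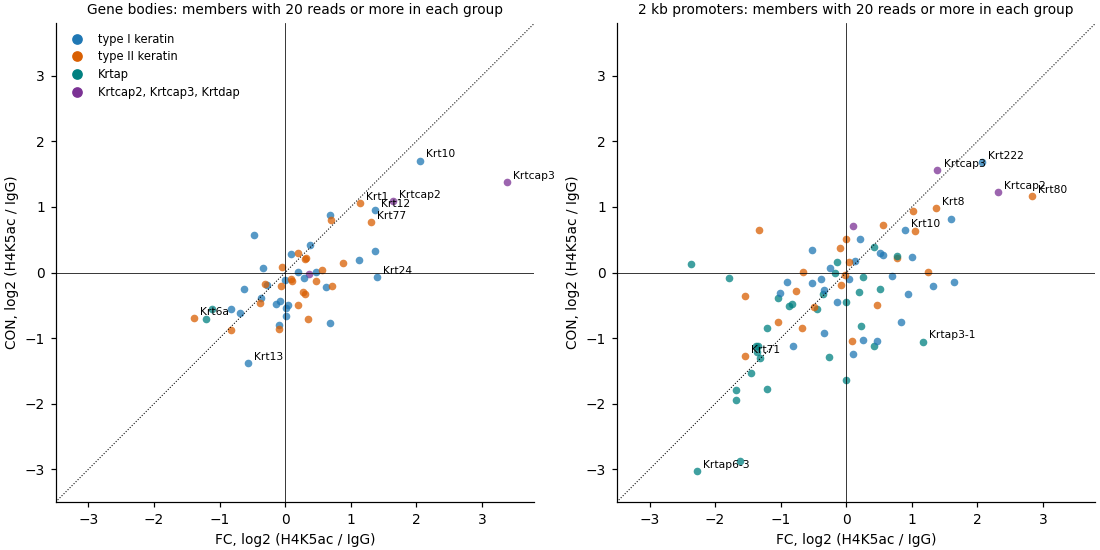
Log2 ratio of H4K5ac-ChIP to IgG-IP of each member in FC (horizontal axis) and CON (vertical axis), for gene bodies and for 2 kb promoters with at least 20 reads in each group, coloured by class. Krt10 is high in both groups among the bodies, Krt222, Krt80, Krtcap2 and Krtcap3 are high in both among the promoters, and Krtap promoters fill the low end.

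The order of the members was partly shared by the 2 groups, which have no library in common. Across 56 bodies with enough reads in each group, the FC and CON ratios correlated with a Pearson r of 0.74 and a Spearman rho of 0.67, and 37 had the same sign. Across 83 promoters the values were 0.63 and 0.57, and 58 had the same sign. These describe genes, which share base composition and cluster, and are not replicates.

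Counted over whole spans, the clusters were lower in H4K5ac than the regions beside them. The chromosome 11 span of 1037 kb had log2 ratios to IgG-IP of -0.12 (-0.17 to -0.08) in FC and -0.34 (-0.38 to -0.30) in CON. Flanks of equal length had 0.99 and 0.83 on the side of the chromosome start, and 1.27 and 1.00 on the far side, so that both flanks were above IgG-IP and the span was below it. The chromosome 15 span of 685 kb had 0.24 (0.18 to 0.30) and 0.00 (-0.05 to 0.05) between flanks at 1.16 and 0.96 and at 1.27 and 1.05. The chromosome 16 span of 960 kb had -1.29 (-1.35 to -1.23) and -1.32 (-1.37 to -1.27). There the flank toward the chromosome start was itself below IgG-IP, at -0.31 and -0.36, and the far flank was at 0.57 and 0.52. Against input the chromosome 15 span had -0.53 (-0.56 to -0.49) in FC and -0.10 (-0.14 to -0.06) in CON. Its flanks had 0.30 and 0.78, and 0.60 and 0.86, by that measure. GC content was 44.1% in the chromosome 11 span beside 48.2% and 48.3% in its flanks, 48.3% on chromosome 15 beside 49.3% and 46.1%, and 38.8% on chromosome 16 beside 40.3% and 46.2%. The span ratios are not adjusted for GC, and its part in these differences was not tested.

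Within the chromosome 11 cluster the Krtap stretch (chr11:99411446-99855308) had -0.87 (-0.95 to -0.79) in FC and -0.99 (-1.07 to -0.92) in CON. The keratin stretch before it, from Krt222 onward, had 0.39 (0.31 to 0.47) and 0.10 (0.03 to 0.18). The keratin stretch after it had 0.06 (-0.03 to 0.14) and -0.19 (-0.27 to -0.11). GC content was 42.04% in the Krtap stretch, 44.1% before it and 47.5% after it. IgG-IP density was nearly level across the 3 stretches, from 0.362 to 0.373 RPKM in FC and 0.366 to 0.424 RPKM in CON, while H4K5ac-ChIP density was 0.198 (Krtap), 0.486 (before) and 0.388 RPKM (after) in FC. FC input was not level, with 0.352, 0.526 and 0.603 RPKM in that order, and the FC ratios to input were -0.83, -0.12 and -0.64. CON input was 0.376, 0.447 and 0.449 RPKM, and the CON ratios to input were -1.04, -0.04 and -0.27.

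The genes that border the clusters were higher than the spans in most cases. Smarce1, a chromatin remodelling subunit, lies on the minus strand with its TSS 1743 bp before the chromosome 11 cluster. Its body ratios were 0.70 (0.38 to 1.03) in FC and 0.94 (0.64 to 1.246) in CON. Eif1, an initiation factor on the other side, had 1.81 (0.46 to 3.51) and 2.33 (0.66 to 4.68). Beside the chromosome 15 cluster, Eif4b had 0.90 (0.58 to 1.23) and 0.65 (0.38 to 0.93). Cldn8 before the chromosome 16 cluster, which encodes a tight junction protein, had -0.70 (-1.88 to 0.51) and -0.76 (-1.85 to 0.36), and Tiam1 after it had 0.82 (0.75 to 0.89) and 0.75 (0.68 to 0.81).

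**Figure D3:**
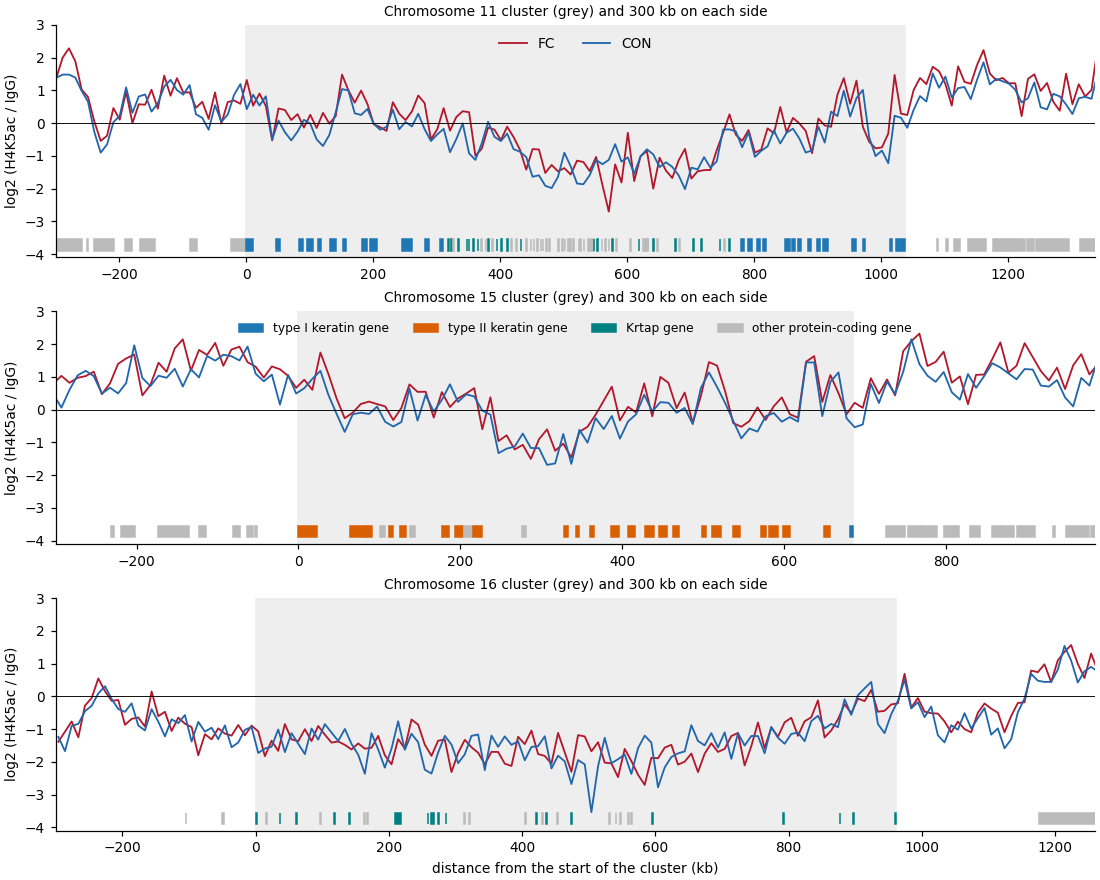
Log2 ratio of H4K5ac-ChIP to IgG-IP in bins of 10 kb (vertical axes) along the 3 clusters, shaded grey, with 300 kb on each side, against distance from the start of the cluster in kb, for FC and CON. The trace drops inside the Krtap stretch of chromosome 11 and across the chromosome 16 cluster, where the span values are -0.87 and -1.29 in FC, and stays higher in the flanks of chromosomes 11 and 15.

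H4K5ac-rich windows, taken as 1 kb windows with at least 20 reads and a 2-fold ratio to IgG-IP in both groups alike, numbered 61 of 524 tested in the spans (11.6%), against 18.3% of the genome. With input in place of IgG-IP they numbered 11 of 1610 tested (0.683%), against 5.09% of the genome. The chromosome 15 cluster had 34 of 240, the chromosome 11 cluster 26 of 249 and the chromosome 16 cluster 1 of 35. The Krtap stretch of chromosome 11 had 0 of 28, and few windows there reached the minimum of reads. A rich window lay in the body or 2 kb promoter of 14 of 100 members, against 61.7% of genes, and in 0 of 46 Krtap genes. A window at the read minimum was present in 56 members and in 9 of the 46 Krtap genes, and 77.0% of all genes with such a window had a rich one. Longer genes have more windows, and the counts are not adjusted for length. Krt80 had 5 such windows, Krtcap2 had 4, and Krt10, Krt12 and Krtcap3 had 3 each.

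The 3 densest windows of each cluster were ranked by H4K5ac-ChIP alone. As H4K5ac-ChIP is the numerator of the ratio to IgG-IP, this ranking favours high ratios. Of the 9 windows, 5 were also 2-fold above IgG-IP in both groups, among them 1 of 3 on chromosome 16. On chromosome 11 the window chr11:99248001-99249000, in the body of Krt10 and 2178 bp from its TSS, held 65, 8 and 26 reads in FC H4K5ac-ChIP, IgG-IP and input and 52, 5 and 18 in CON. A further one lay 1322 bp upstream of Krt10 and one 5601 bp from Krt222. On chromosome 15 they were intergenic, at 12141 and 18141 bp from Krt8 and 2444 bp from Krt80. On chromosome 16 all 3 were between 8948 and 22432 bp from Krtap7-1.

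Within 1 kb of the TSS the average gene showed a rise in H4K5ac-ChIP that was smaller or missing in the keratin classes. Over all protein_coding genes the mean density within 1 kb of the TSS was 1.29 times that at 3 to 5 kb in FC and 1.16 times in CON. For type I keratins the same quotient was 1.02 and 0.963, for type II keratins 0.897 and 0.886, and for Krtap genes 1.04 and 0.960. In IgG-IP the quotients were 0.846 and 0.848 for all genes, 0.966 and 0.8999 for type I keratins, 1.07 and 0.998 for type II keratins and 0.779 and 0.859 for Krtap genes. The level at Krtap starts was 0.230 RPKM in FC and 0.204 RPKM in CON, below the IgG-IP level of 0.323 and 0.366 RPKM. At the starts of olfactory and vomeronasal receptor genes H4K5ac-ChIP was lower still, at 0.131 and 0.123 RPKM.

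**Figure D4:**
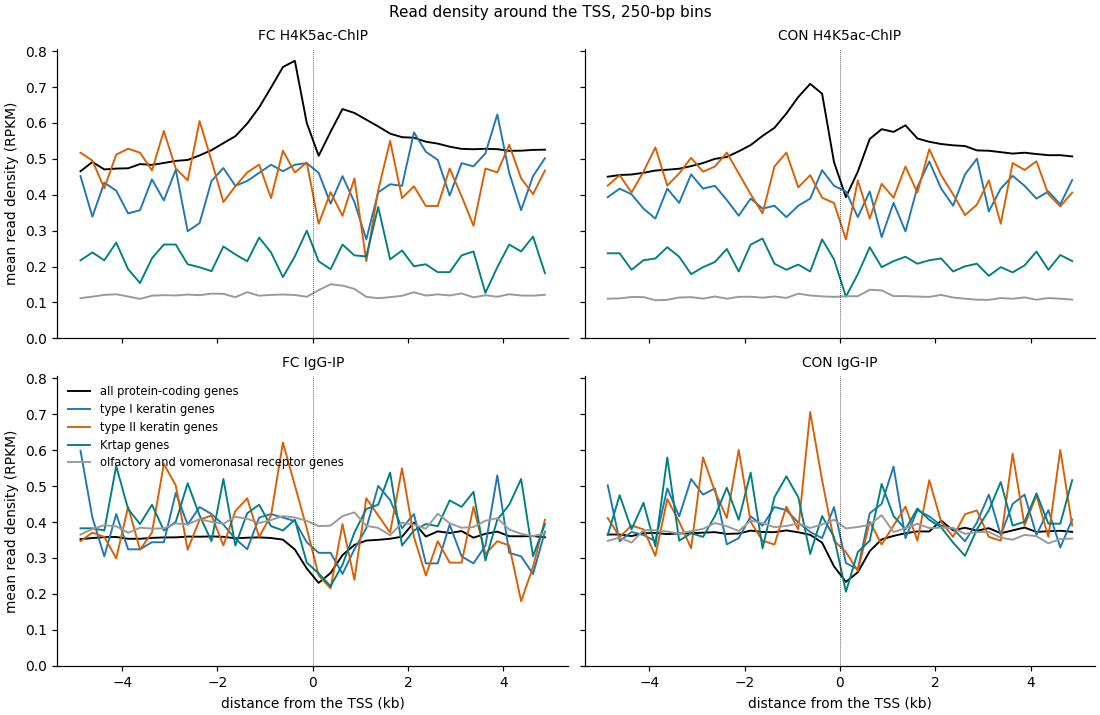
Mean read density in RPKM (vertical axes) in bins of 250 bp against distance from the TSS in kb, for H4K5ac-ChIP and IgG-IP of FC and CON, drawn for type I keratins, type II keratins, Krtap genes, all protein_coding genes and the receptor genes. H4K5ac-ChIP of all genes is highest upstream of the TSS, at 0.773 RPKM in FC and 0.709 RPKM in CON, and dips to 0.509 and 0.394 RPKM in the bin after it, and the keratin and Krtap lines show no peak of that height there.

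Read density in these libraries varied with GC content, and members differ in it from other genes. Median GC was 51.0% in member bodies against 45.6% over all genes, and 44.0% in member promoters against 46.1%. Each member was therefore set beside the median of all genes in the same step of 1% GC. Among bodies, 49 of 59 members were below that median in FC and 51 of 59 in CON. Among promoters, 66 of 87 were below it in FC and 77 of 91 in CON, including 23 of 23 type II keratins in CON.

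The pooled ratios less the value of genes of equal GC were -0.67 (-0.74 to -0.60) in FC and -0.80 (-0.86 to -0.73) in CON for bodies. For promoters they were -0.79 (-0.89 to -0.69) and -0.83 (-0.92 to -0.73). By class the promoter difference was -0.72 and -0.88 for type I keratins, -1.11 and -0.98 for type II keratins and -0.67 and -0.77 for Krtap genes. The median GC of Krtap promoters was 38.0%. The intervals of type II and Krtap promoters did not overlap in FC, from -1.31 to -0.91 and from -0.83 to -0.50, whereas in CON those of the 3 classes did. Over bodies the difference was -1.31 and -1.49 for Krtap genes, -0.75 and -0.81 for type II and -0.53 and -0.71 for type I keratins. The Krtap bodies of chromosome 11 alone had -0.97 (-1.42 to -0.50) in FC, an interval that includes the type II value. Those of chromosome 16 had -1.47 (-1.81 to -1.12) in FC. In CON chromosome 11 had -1.75 (-2.15 to -1.35) and chromosome 16 had -1.22 (-1.53 to -0.91), and neither interval included the type II value.

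**Figure D5:**
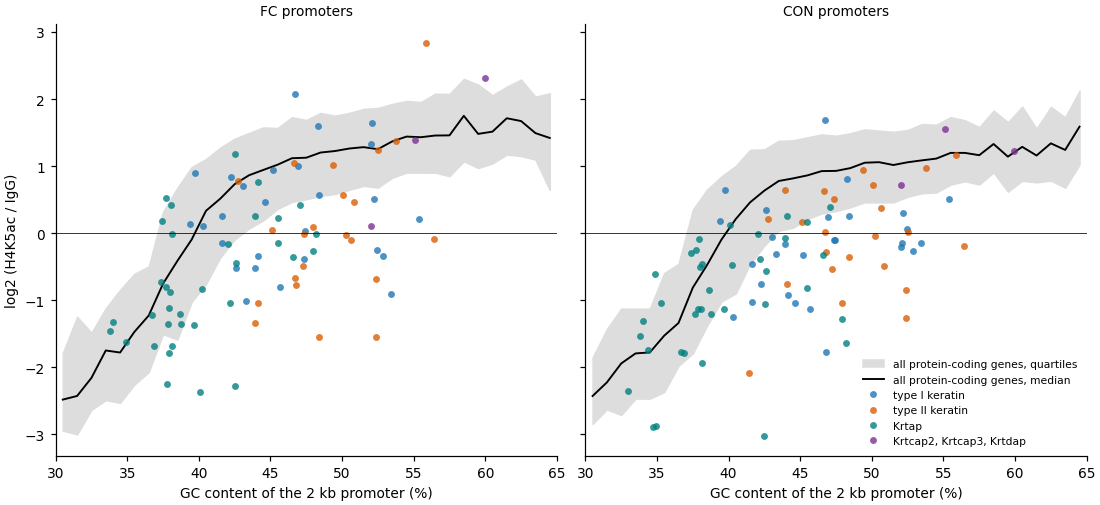
Log2 ratio of H4K5ac-ChIP to IgG-IP of the 2 kb promoters (vertical axis) against their GC content in % (horizontal axis) in FC and CON; points are members by class, and the line and band are the median and quartiles of all protein_coding genes in steps of 1%. Most members lie below the line, 66 of 87 in FC and 77 of 91 in CON.

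Other gene lists place these values. The 15 other intermediate filament genes, which include those of neurons, glia and the nuclear lamina, had pooled body ratios of 0.95 (0.87 to 1.02) in FC and 0.69 (0.62 to 0.77) in CON, and 7 and 5 were at least 2-fold above IgG-IP, against 32.9% and 24.6% of genes. Lmna, a nuclear lamin, was highest at 2.06 (1.77 to 2.37) and 1.54 (1.29 to 1.80), and Nefm, a neurofilament gene, was lowest in FC at -0.24 (-0.47 to -0.01). Nefm had -0.23 in CON. The neurofilament genes Nefl and Nefh had -0.05 and 0.16 in FC, and -0.72 and -0.34 in CON. Ina and Prph, also filament genes of neurons, had 0.71 and 1.64 in FC, and -0.09 and 0.25 in CON. The pooled value of the list therefore does not describe the neurofilament genes. The 25 epithelial partner genes of keratins had 0.30 (0.26 to 0.35) and 0.16 (0.12 to 0.20), and 6 and 5 were at least 2-fold above IgG-IP, against the same 32.9% and 24.6%. Within that list Hr, a corepressor of the hair follicle, and Jup, a desmosomal protein, were highest in FC, at 1.86 and 1.76. Flg and Ivl were lowest in FC, at -2.09 and -1.52. The receptor genes had a lower pooled body ratio than each class of members, at -1.72 in FC and -1.84 in CON.

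Markers of the cell types that a hippocampal dissection could hold were read in the same way. Pooled body ratios in FC and CON were 0.62 and 0.63 for 7 excitatory neuron markers, 0.71 and 0.71 for 5 astrocyte markers, and 1.58 and 1.23 for 4 oligodendrocyte markers. Those of epithelium-like choroid plexus and ependyma (6 genes) had 0.39 and 0.48, and of leptomeninges and vessels (5 genes) 0.73 and 0.70. Mbp, the myelin basic protein gene, had 1.81 (1.68 to 1.94) and 1.43 (1.32 to 1.54). The choroid plexus and ependyma genes lay on both sides of IgG-IP: Foxj1, of ciliated cells, had 1.72 and 1.75, Otx2 had -1.31 and -0.80, and Ttr, the main choroid plexus product, had -0.10 (-0.48 to 0.28) and 0.28 (-0.11 to 0.67). The part of these cell types in the member values was not tested.

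Between groups, H4K5ac over the members differed little. The pooled log2 ratio of FC to CON was 0.09 (0.04 to 0.14) over bodies and 0.17 (0.09 to 0.25) over promoters. The control libraries differed by as much or more over the same bodies, by -0.21 (-0.29 to -0.13) in IgG-IP and 0.53 (0.49 to 0.57) in input, whereas all genes had median ratios of 0.04 (H4K5ac-ChIP), -0.06 (IgG-IP) and 0.31 (input). Over promoters IgG-IP differed by -0.05 (-0.17 to 0.06) and input by 0.13 (0.06 to 0.19). With 1 library for each, a difference between groups and a difference between libraries cannot be told apart.

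Of 62 bodies with at least 20 H4K5ac-ChIP reads in both groups together, 3 were at least 1.5-fold higher in FC (background 3.34%) and 3 at least 1.5-fold lower (background 1.16%). The higher ones were Krtap4-7, Krt19 and Krt16. Krt19 held 88 reads in FC and 58 in CON, a log2 ratio of 0.79 (0.29 to 1.29), and its input held 239 and 102 reads. Krtap4-7 held 17 and 6 reads, at 1.69 (0.28 to 3.32), and Krt16 held 28 and 21, at 0.60 (-0.27 to 1.49).

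The lower ones were Krt6a, Krtap11-1 and Krtap15. Krt6a held 9 reads in FC and 27 in CON, at -1.40 (-2.67 to -0.27), while Krt6b held 16 and 18, at 0.02 (-1.05 to 1.07). Krtap15 held 48 and 94 reads, at -0.78 (-1.32 to -0.27), and Krtap11-1 held 12 and 27, at -0.98 (-2.10 to 0.05). After these the members furthest from equal were Krt86 at 0.51 (0.10 to 0.92) and Krt8 at 0.39 (0.00 to 0.79) on the higher side, and Krt15 at -0.47 (-1.10 to 0.14) and Krt4 at -0.44 (-0.96 to 0.06) on the lower side. Krt10, the keratin with the strongest H4K5ac, was at 0.19 (-0.12 to 0.51).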

How the data were processed

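The authors deposited, per library, the aligned reads of the ABI SOLiD sequencer on mm9, one line per read with position, strand and a score whose meaning is not given in the sources used here. The deposited score ran from 4 to 100 and was used only as an alternative filter. Per the methods of the study, reads were aligned with the mapping tool of the Bioscope suite. Reads of all 6 libraries were counted where they overlapped a region by at least 1 bp: gene bodies and 2 kb promoters of the GENCODE mm9 annotation, cluster spans, windows of 1 kb and bins around the TSS. Reads had a span of 25 to 50 bp, so short regions gain reads at their edges in all libraries alike. Counts were scaled to library totals and compared as log2 ratios with exact binomial intervals (Python 3.11.15, NumPy 2.4.6, SciPy 1.17.1). Single genes and pooled sets are given without added reads, and medians and counts with 0.5 read added and at least 20 reads in both libraries together. The GC comparison used the median of all protein_coding genes per step of 1%.

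Samples were grouped by their titles. No p-value was computed, since each group and antibody has 1 library. The counting and ratio steps were tested on simulated data. The TSS profile left out 16 protein_coding genes at 5 RPKM or more in a library, none of them a member. Motifs were read from the mm9 genome, because the promoter table at hand is of another build.

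The members and gene lists were chosen with earlier results of these data known. Genes were named by role (simple, basal, suprabasal, stress and cornea keratins, Krt222, Krt80 and the keratinocyte-named genes) and by value: the 3 highest and 3 lowest body ratios per class in FC, the 5 furthest up and down between groups, the 5 highest inputs, the 3 densest windows per cluster, the bordering genes and the 2 highest and lowest of each list. Not all genes so chosen are printed. Promoters and members called in a count are named beyond that rule, after their values were seen. Krt3 is not in the annotation used.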

Additional observations from a re-analysis of the deposited data

Results flagged for a closer look

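Of 424 ratios compared between FC and CON, 4 had intervals on opposite sides of 0. These differences were not tested. The Krtap3-1 promoter, a hair matrix gene at the start of the Krtap stretch of chromosome 11, had a log2 ratio to IgG-IP of 1.23 (0.24 to 2.37) in FC and -1.05 (-2.03 to -0.06) in CON. Against input it had 0.92 (0.29 to 1.56) in FC and -1.05 (-1.90 to -0.25) in CON. The promoter held 51, 10 and 39 reads in FC H4K5ac-ChIP, IgG-IP and input and 20, 19 and 41 in CON, so H4K5ac-ChIP and IgG-IP moved in opposite directions. The Krt80 body had a ratio to input of -0.21 (-0.39 to -0.04) in FC and 0.58 (0.38 to 0.78) in CON, with 434 and 515 reads in H4K5ac-ChIP and 727 and 341 in input. The Krt8 promoter had a ratio to input of -0.73 (-1.33 to -0.15) in FC and 0.90 (0.06 to 1.79) in CON, with 36 reads in each H4K5ac-ChIP library and 86 and 19 in input.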

How the results depend on the processing

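Of 56 alternatives to 14 results, 30 were classed as leaving the result the same and 22 as moving it. The other 4 took a ratio whose interval excluded 0 to below 0, 1 of them to a value level with 0. The class of the same allowed some change, as from 61 to 48 rich windows with 1 read per position and strand. The CON body ratio (0.02, with an interval that includes 0) was below 0 under all 6 of its alternatives, from -0.80 to -0.0016. Its interval still included 0 with 1 read per position and strand, with input and with scores of 30 or more. The same held without the keratinocyte-named genes. Only the GC comparison and leaving out members that overlap other genes gave an interval below 0. No paired analysis was possible because each group and antibody has 1 library. When input replaced IgG-IP, the FC body ratio reversed to -0.48, the promoter ratios became -0.43 in FC and -0.47 in CON, the span ratios -0.58 and -0.56, the FC bodies at 2-fold 3 (Krt10 and 2 outside the original 9) and the rich windows 11. Less the median of genes of equal GC, the body ratios became -0.67 (reversed) in FC and -0.80 in CON, the promoter ratios -0.79 and -0.83, and the FC to CON body ratio -0.00043 (-0.051 to 0.050, level with 0). That last ratio also reversed to -0.44 less the input ratio and was 0.30 less the IgG-IP ratio, and the promoter ratio of FC to CON became 0.039 less the input ratio. With 1 read per position and strand, the FC body ratio was 0.22 and the span ratios -0.41 and -0.54. With scores of 30 or more they were 0.24, -0.43 and -0.59. Without members that overlap other genes, bodies had 0.25 in FC and -0.073 in CON. Without a minimum of reads, 15 FC bodies reached 2-fold and 25 bodies reached 1.5-fold between groups. With that minimum kept and 2-fold in place of 1.5-fold, 2 bodies differed between groups. For changes other than these constructions the cause was not tested.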

Other observations

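Reads with a score under 30 made up 10.9% to 12.4% of member body reads against 11.3% to 17.1% of the libraries. In Krtap bodies the share was 18.1% in FC H4K5ac-ChIP and 15.5% in CON H4K5ac-ChIP, with 16.2% and 18.7% on chromosome 11 and 12.8% and 11.9% on chromosome 16, beside 12.2% and 11.3% of the whole libraries. In IgG-IP it was 19.4% in FC, with 31.6% on chromosome 11, and 14.7% in CON, beside 17.1% and 15.5% of the libraries. The median share of 50-base words found more than once in the spans that hold the members was 12.1% for Krtap genes. It was 14.6% for those on chromosome 11, 27.8% for those on chromosome 7 and 0.390% for those on chromosome 16. The median was 0.839% for type I and 0.612% for type II keratins.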
